A study of Mus musculus with 8 samples.

Results

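Laminins are the cross-shaped glycoproteins of basement membranes, and this account covers the 8 mouse genes for laminin chains that lie outside laminin-332, the laminin of the epidermal anchoring complex. They are the alpha chain genes Lama1, Lama2, Lama4 and Lama5, the beta chain genes Lamb1 and Lamb2, and the gamma chain genes Lamc1 and Lamc3. They were found by matching the RefSeq accession of each array probe to the gene symbol, and are represented by 9 of 26762 named probes, or 8 of 20284 named genes. All 8 passed the filter on dim probes and were among the 17761 genes tested. No member was dropped. The set is defined by gene name, but it was proposed with results of the comparison of DTG with Control known. Its signal values and calls in that comparison are therefore a description.

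Skin RNA was hybridised to 8 one-colour oligonucleotide arrays, 4 for samples labelled Control and 4 for samples labelled DTG, all from whole mouse skin. The series title names overexpression of Musashi1 (gene Msi1), which binds RNA, and the labels do not spell out DTG. Strain, age, the allele or alleles behind DTG, the promoter of any transgene and what Control mice carry are not given in the sources used here. The comparison asks which transcripts differ between DTG and Control skin.

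Each laminin is a trimer of 1 alpha, 1 beta and 1 gamma chain, assembled inside the cell and secreted. Outside the cell the short arms polymerise into a sheet that binds nidogen, perlecan and collagen IV, while the end of the alpha chain binds integrins and dystroglycan on cells. In skin, laminins underlie the epidermis and hair follicles and wrap blood vessels, nerves, muscle and adipocytes.

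Some array measures moved with the group. On the Control arrays 79.5% to 85.1% of spots were well above background, on the DTG arrays 68.8% to 71.6%, and the negative-control spots had a mean log2 signal of 2.40 to 3.29 and 4.27 to 4.69. The Control arrays lay in row 1 and the DTG arrays in row 2 of 1 slide, and the effect of the row cannot be told apart from that of the group. All samples are labelled male, but Xist, the noncoding transcript of the inactive X chromosome, was bright on 5 of them: Control 2, Control 4, DTG 1, DTG 3 and DTG 4. It was dim on Control 1, Control 3 and DTG 2. Below, these are the high Xist and low Xist arrays, and the label of the 5 does not match their Xist signal. The Y chromosome gene Eif2s3y ran the other way. It read -7.79 to -6.18 on the high Xist arrays and 1.22 to 1.66 on the low Xist arrays. Msi1, the gene the title names, read -5.92 to -1.48 on the Control arrays and 3.85 to 4.16 on 3 DTG arrays on its brighter probe. The spot of the remaining DTG array carried an outlier flag and was left out. The other Msi1 probe gave a Control mean of -3.11 ± 0.23 (SD, n = 4). Its DTG mean was -3.13 ± 0.15 (SD, n = 4).

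Promoter sequence was at hand for 4 of the 8 members, from RefSeq (build GRCm38.p6). The windows are shown so that the start regions of these 4 chain genes, 2 of alpha and 2 of beta chains, can be read beside their values. Each line holds the 250 bases before the gene's start, 5′ to 3′ along the gene, and capitals mark the GC box GGGCGG on either strand. The windows are chr10:27616943-27617192 (minus strand) for Lama2, chr2:180225860-180226109 (minus strand) for Lama5, chr12:31265043-31265292 (plus strand) for Lamb1 and chr9:108479612-108479861 (plus strand) for Lamb2.
Lama2: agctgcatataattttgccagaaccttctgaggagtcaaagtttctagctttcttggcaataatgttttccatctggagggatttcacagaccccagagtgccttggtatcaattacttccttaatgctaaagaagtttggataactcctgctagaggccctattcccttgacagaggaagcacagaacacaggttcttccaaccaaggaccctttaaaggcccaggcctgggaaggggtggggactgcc
Lama5: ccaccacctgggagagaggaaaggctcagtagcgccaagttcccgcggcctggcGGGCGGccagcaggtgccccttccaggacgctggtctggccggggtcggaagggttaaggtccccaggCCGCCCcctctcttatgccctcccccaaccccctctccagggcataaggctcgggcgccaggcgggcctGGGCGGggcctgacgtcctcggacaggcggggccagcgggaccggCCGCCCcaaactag
Lamb1: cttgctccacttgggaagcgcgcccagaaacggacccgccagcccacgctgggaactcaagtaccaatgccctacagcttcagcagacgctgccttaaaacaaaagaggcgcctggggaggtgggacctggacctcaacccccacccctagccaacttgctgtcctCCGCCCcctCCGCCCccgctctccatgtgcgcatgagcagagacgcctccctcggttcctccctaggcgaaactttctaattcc
Lamb2: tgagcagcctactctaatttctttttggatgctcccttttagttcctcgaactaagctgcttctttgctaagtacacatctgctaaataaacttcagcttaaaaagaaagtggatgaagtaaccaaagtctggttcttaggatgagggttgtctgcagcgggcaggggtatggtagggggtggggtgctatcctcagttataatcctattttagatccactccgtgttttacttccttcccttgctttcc
The GC box occurred 4 times in the Lama5 window, 2 times in the Lamb1 window and 0 times in those of Lama2 and Lamb2. Of 32851 windows of the same length, 32.7% held at least 1. CCAAT, searched on both strands, occurred 1 time in the Lamb1 window and 0 times in the other windows, against 33.8% of all windows with at least 1. TATAAA occurred in none of the 4 windows and in 12.4% of all windows. G and C made up 47.2% of the Lama2, 72.4% of the Lama5, 62.0% of the Lamb1 and 43.6% of the Lamb2 window, with a median of 52.4% over all windows. These letter matches describe the windows, show no binding and were not set against the expression values.

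Lama1 signal was several times lower in DTG skin, Lamb2 and Lama2 were modestly lower, and the other 5 members were not called in either direction. In the fit over all genes (limma, Benjamini-Hochberg adjustment, calls at an adjusted p under 0.05) 3 of 8 members were called lower and 0 higher. Over all genes 32.4% were called, 21.3% lower and 11.1% higher. The groups did not overlap for 3 members, all lower, against 34.6% of all genes in either direction and 23.2% lower. Because the members were proposed with this contrast in view, nothing is read from their counts. The median log2 fold change, DTG minus Control, was -0.33 over the 8 members and -0.15 over all genes tested. All levels below are log2 processed signal minus the array's own 75th percentile, so that 0 is the brightness which 75% of the array's probes do not exceed. Levels of different probes are not compared, since probes differ in brightness for equal RNA.

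The scale of the arrays bears on every small change. On a scale set by the spike-in control spots the median change over all genes was 0.34 and 6.86% of calls were lower, against 65.7% here and 41.7% without scaling. On the spike-in scale only Lama1 was called lower, against 2.94% of all genes called lower and 40% higher, Lamb2 and Lamc3 read below 0 without a call, the other 5 members read above 0, and the members' median was 0.16. Once the all-gene median is subtracted, the members' median was -0.18 on both scales. Each scale subtracts a constant per array and so shifts all genes alike, which makes this near equality a matter of arithmetic. Which scale is closer to the RNA content of the tissue was not tested.

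**Figure D1:**
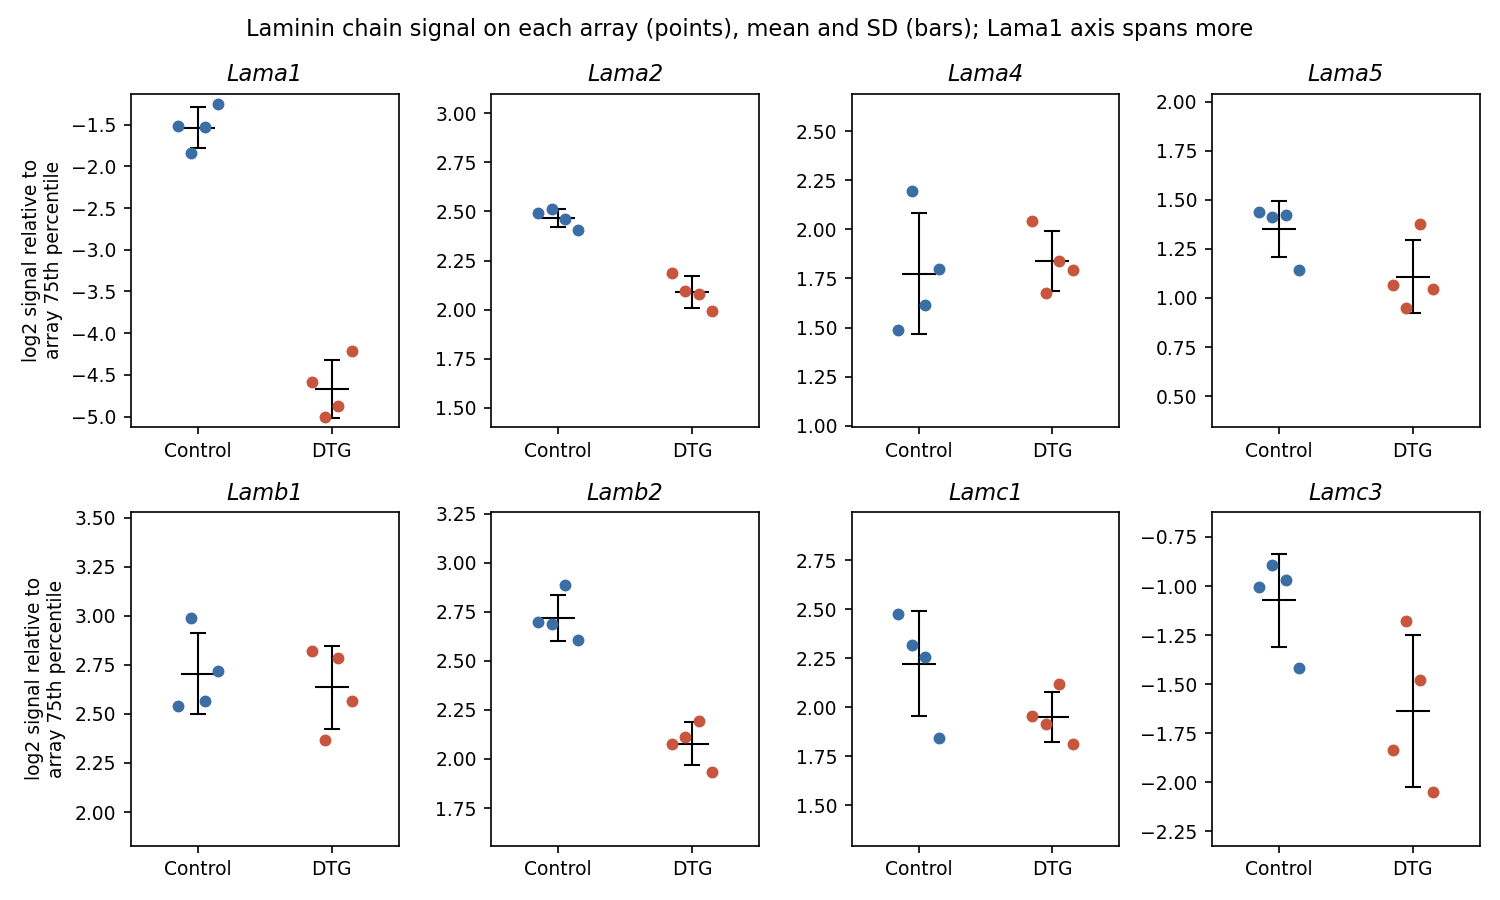
Vertical axis, log2 signal above or below the 75th percentile of its array, for the 8 laminin chain genes on the 4 Control and 4 DTG arrays; points are arrays and bars are the mean and SD, and the Lama1 axis spans a wider range. The DTG points lie below all Control points for Lama1, Lama2 and Lamb2 and overlap them for the other 5 genes. On the spike-in scale, not shown here, the log2 fold change of Lama2, DTG minus Control, was 0.11.

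Lama1 encodes the alpha1 chain, known chiefly from embryonic basement membranes and a few adult epithelia. Its signal was -1.52, -1.84, -1.53 and -1.25 on Control 1 to 4 and -4.58, -5.00, -4.88 and -4.21 on DTG 1 to 4. Every DTG array lay more than 2 log2 units below every Control array. The Control mean was -1.54 ± 0.24 (SD, n = 4) and the DTG mean -4.67 ± 0.35 (SD, n = 4). Lama1 fell by 3.13 on the log2 scale (SE 0.19), an 8.77-fold lower signal. Of the 17761 genes tested, only 6 had a more negative fitted change.

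The probe was well above background on 4 of 4 Control arrays and 3 of 4 DTG arrays, the exception being DTG 2. On DTG 2 it read -5.00, and the lowest signal well above background on that array was -5.25. The size of the change moved with the background correction, to -2.41 with normexp, and on the spike-in scale it was -2.65. It was -3.01 within the 5 arrays of high Xist and -3.48 within the 3 of low Xist. The latter rests on a single DTG array and 2 Control arrays. In the other alternatives that kept the gene it was called, at -3.29 to -2.41. In RNA of whole skin, fewer cells of a type and less RNA per cell cannot be told apart.

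Lama2 encodes the alpha2 chain of muscle and peripheral nerve basement membranes, whose loss causes a congenital muscular dystrophy. On its brighter probe the Control arrays read 2.49, 2.51, 2.46 and 2.40 and the DTG arrays 2.19, 2.10, 2.08 and 1.99. The Control values are tightly grouped, and the lowest of them lies above the highest DTG value. Lama2 fell by 0.38 (SE 0.08) on the scale used, but read 0.11 on the spike-in scale and, without scaling, -0.25 with no call. The second Lama2 probe gave 1.94, 2.25, 2.07 and 2.11 in Control and 1.79, 1.60, 1.57 and 1.50 in DTG. It too separated the groups, with a change of -0.48. The change of the brighter probe was -0.37 within the high Xist arrays and -0.38 within the low Xist arrays, and passed the threshold in neither.

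Lama4 and Lama5 showed no called change. Lama4 encodes the alpha4 chain, which lacks the amino-terminal domain needed for polymerisation and is found around vessels, adipocytes and muscle. It read 1.49, 2.20, 1.61 and 1.80 in Control and 2.04, 1.68, 1.84 and 1.79 in DTG. The DTG values all fall inside the Control range. The fitted change was 0.06, with a 95% interval of -0.30 to 0.43. It turned to -0.02 with the Xist class in the model and to -0.11 within the high Xist arrays.

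Lama5 encodes the alpha5 chain, the main alpha chain beneath many adult epithelia and in vessel walls. Its Control values were 1.44, 1.41, 1.42 and 1.14 and its DTG values 1.06, 0.95, 1.37 and 1.05. Control 4 sits among the DTG arrays and DTG 3 among the Control arrays. The change was -0.25, with a 95% interval of -0.52 to 0.03, and 0.24 on the spike-in scale. The interval leaves room for a decrease larger than that of Lama2.

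Of the beta chain genes, Lamb2 encodes the beta2 chain, known from the neuromuscular junction, the kidney filter and vessel walls. It read 2.70, 2.69, 2.88 and 2.60 in Control and 2.07, 2.11, 2.19 and 1.93 in DTG. All DTG values lay below all Control values. Lamb2 fell by 0.64 (SE 0.10), a 1.56-fold lower signal, and was still called without scaling. The spike-in scale gave -0.16, without a call. Within the high Xist arrays it was -0.58 and called, and within the low Xist arrays -0.68 and not called.

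Lamb1 encodes the beta1 chain, the commonest beta chain of laminins. Its Control values were 2.54, 2.99, 2.57 and 2.72 and its DTG values 2.82, 2.37, 2.79 and 2.57. The groups are interleaved. The change was -0.07, with a 95% interval of -0.40 to 0.25, and it read 0.41 on the spike-in scale without being called.

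Lamc1 encodes the gamma1 chain, which takes part in most laminin trimers. It read 2.47, 2.32, 2.26 and 1.84 in Control and 1.95, 1.91, 2.12 and 1.82 in DTG. Control 4 lies among the DTG arrays. The change was -0.27, with a 95% interval of -0.60 to 0.05, and 0.21 on the spike-in scale.

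Lamc3 encodes the gamma3 chain. Its values were -1.01, -0.89, -0.97 and -1.42 in Control and -1.84, -1.18, -1.48 and -2.05 in DTG. Control 4 is again low, and DTG 2 is the DTG array nearest to Control. The change was -0.56, with a 95% interval of -1.02 to -0.10 before adjustment over all genes, and it did not pass after adjustment. Without Control 4 both gamma chain genes were called lower, with Lamc1 at -0.40 and Lamc3 at -0.68. In that fit 5 of 8 members and 3362 of all 17374 genes tested were called lower. Without DTG 2 Lamc3 was also called, at -0.72. With the slide column as a block it was called at the same change of -0.56, and with normexp correction at -0.54.

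**Figure D2:**
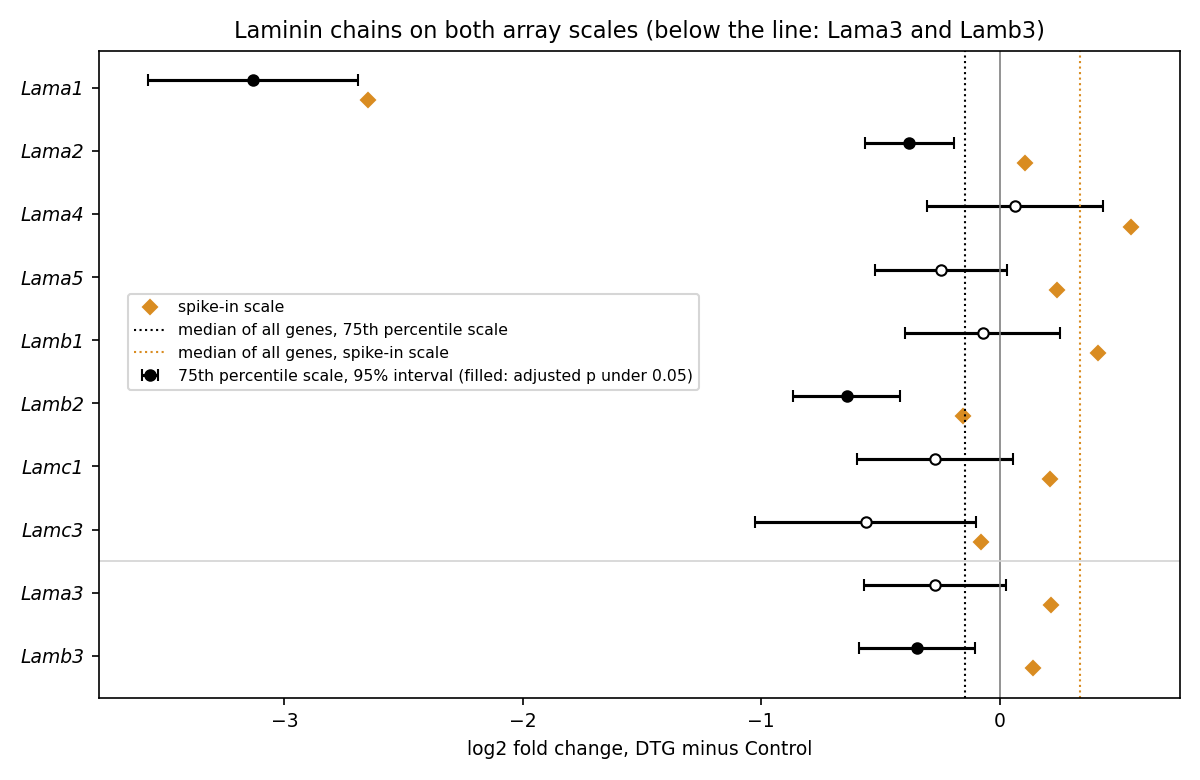
Log2 fold change, DTG minus Control (horizontal axis), of the 8 laminin genes and, below the line, of Lama3 and Lamb3; circles and bars are the fitted change and its 95% interval on the 75th percentile scale, filled where called, diamonds the change on the spike-in scale, and dotted lines the median of all genes on each scale (-0.15 and 0.34). Lama1 stands far to the left on both scales, while Lama2 changes side.

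Differences between 2 chains within an array do not depend on the scale of that array, unless the scaling is by quantiles. Their size has no meaning in itself, since probes differ, but their change between arrays does. Lamb2 minus Lamb1 was 0.15, -0.30, 0.32 and -0.12 on Control 1 to 4 and -0.74, -0.26, -0.59 and -0.64 on DTG 1 to 4. The means were 0.01 ± 0.28 (SD, n = 4) and -0.56 ± 0.21 (SD, n = 4), a change of -0.57. The groups touch only in Control 2 and DTG 2, which belong to opposite Xist classes. Within the high Xist arrays, and within the low Xist arrays, the DTG values lay below the Control values. With quantile scaling the change was -0.56.

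Lama2 minus Lama4 was 1.0, 0.31, 0.85 and 0.60 in Control and 0.15, 0.42, 0.24 and 0.20 in DTG. The change was -0.44, and again Control 2 and DTG 2 alone made the groups overlap. It was -0.27 within the high Xist and -0.51 within the low Xist arrays. The other differences had overlapping groups apart from Lama1 minus Lama5, and varied with the arrays used. Lama5 minus Lama4 changed by -0.31 over all arrays, by -0.0087 within high Xist and by -0.61 within low Xist. Lamc1 minus Lamb1 changed by -0.20, by 0.013 within high Xist, and by -0.064 without Control 1. Lamc3 minus Lamc1 changed by -0.29 and by 0.26 within low Xist. Lama1 minus Lama5 changed by -2.89 with no overlap, and by -2.19 with normexp background correction. These differences come from the contrast with which the members were proposed and were not tested.

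**Figure D3:**
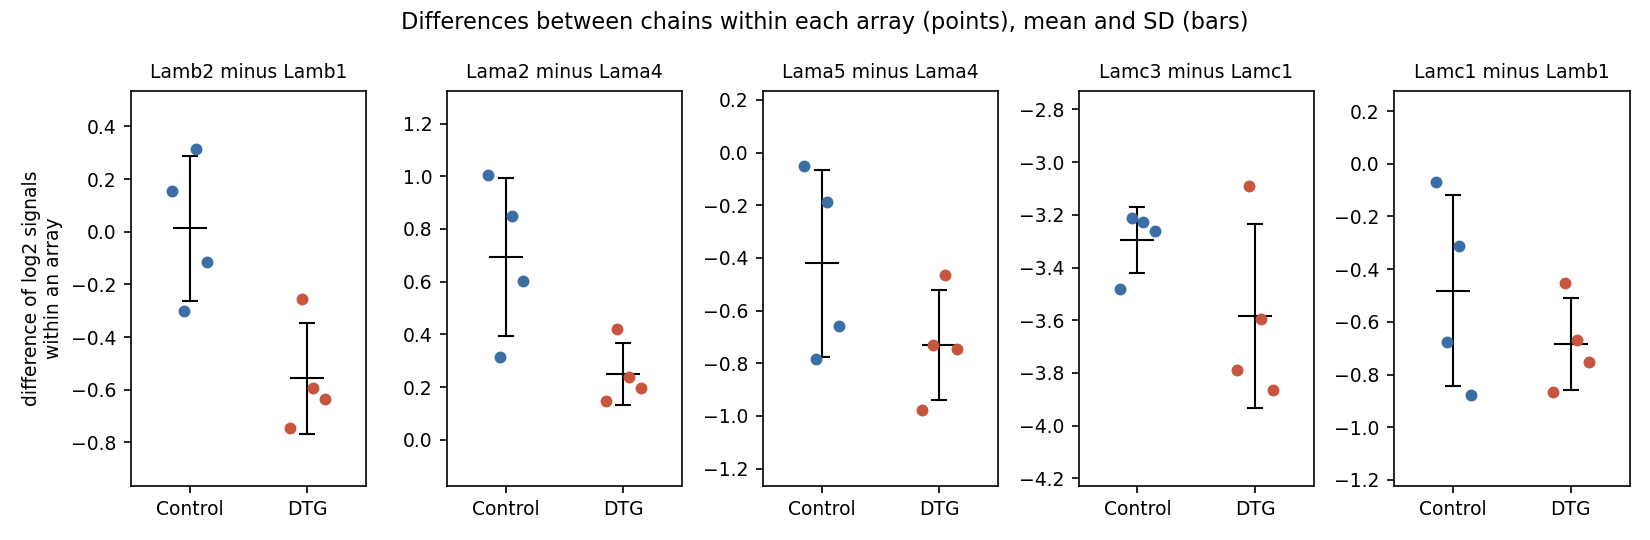
Difference of the log2 signals of 2 laminin chains within each array (vertical axis), by group; points are arrays, bars the mean and SD. Lamb2 minus Lamb1 averaged 0.01 in Control and -0.56 in DTG, and the Lama2 minus Lama4 panel shows a like shift of -0.44, with a small overlap in both.

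For laminin-332, Lamb3 and Lama3, its beta3 and alpha3 chain genes, are given for comparison. Lamb3 fell by 0.35 (SE 0.11) on the scale used and read 0.14 on the spike-in scale. Its call was lost on leaving out any 1 array other than Control 4. Lama3 read -0.27 (SE 0.13) and was not called. For Lama3 the second probe gave -0.02.

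Among 25 genes of basement membrane components and assembly factors, 10 were called lower and 1 higher, and 14 did not pass, against the 21.3% and 11.1% of all genes given above. The list median was -0.37, or -0.22 relative to all genes. The list was written with earlier results of these data known. The largest decrease on the brightest probes was that of Col4a6, for the alpha6 chain of collagen IV, at -2.10 (SE 0.19, limma adjusted p = 0.00024), from a mean of -1.19 in Control to -3.29 in DTG. With the probes of each gene averaged it was -1.33. Its partner chain gene Col4a5 fell by 1.09 (SE 0.09), and by 0.60 on the spike-in scale. Col4a1 and Col4a2, for the ubiquitous collagen IV chains, read 0.08 (SE 0.13) and 0.13 (SE 0.14) and were not called. The network linkers likewise were not called, with Nid1 at -0.13, Nid2 at 0.28 and the perlecan gene Hspg2 at -0.28.

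Genes of the Fraser complex at the dermal-epidermal junction, Frem2, Frem1 and Fras1, fell by 1.07, 1.04 and 0.56. Agrn, for the proteoglycan agrin that binds laminin, fell by 0.68, and the anchoring collagen genes Col7a1 and Col17a1 by 0.73 and 0.61. Tinagl1, for a secreted matrix glycoprotein, rose by 1.93 (SE 0.23, adjusted p = 0.00071). Within the high Xist arrays 8 of the 25 were called lower, and within the low Xist arrays 1. On the spike-in scale 3 were called lower and 6 higher, against 2.94% and 40% of all genes. The 3 were Col4a6 (-1.62), Col4a5 (-0.60) and Frem2 (-0.59). Frem1, Fras1, Agrn, Col7a1 and Col17a1 were thus not called lower on that scale.

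Of 13 laminin receptor genes, 1 was called lower, 0 higher and 12 did not pass, against 21.3% and 11.1% of all genes, and the list median was -0.01. Itgb4, the beta4 integrin of hemidesmosomes, fell by 0.81 (SE 0.16, limma adjusted p = 0.0061). It missed the threshold on the spike-in scale, at -0.33, and within either Xist class, at -0.65 and -0.92. Its partner Itga6 read -0.01 (SE 0.12), Itgb1, the beta subunit of most other laminin-binding integrins, 0.40 (SE 0.16) and the dystroglycan gene Dag1 -0.17 (SE 0.12). On the spike-in scale 7 of the 13 were called higher, where 40% of all genes were.

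Of 5 tested netrins, secreted proteins whose amino-terminal part resembles laminin short arms, 3 were called lower and 0 higher, against 21.3% and 11.1% of all genes. Ntn1 fell by 0.56 (SE 0.18). The count was 0 on the spike-in scale, without scaling, with normexp, and on leaving out Control 2, Control 3 or Control 4. Without any of these Control arrays only 4 netrins were tested, and Ntn5 was not among them. With probes above background on all 8 arrays, 3 netrins were tested and 1 was called lower. The count was also 1 with quantile scaling, within high Xist and without DTG 1, DTG 2 or DTG 4. Ntn5 had 0 of 4 and Ntn3 1 of 4 DTG arrays well above background, and with normexp correction Ntn5 read 0.0071. Of 7 genes for enzymes that glycosylate dystroglycan or cleave matrix proteins, 3 were called lower, against 21.3% of all genes, led by the mannosyltransferase gene Pomt1 at -0.65. The count was 1 with probes averaged, within high Xist and without Control 1, Control 3, DTG 2 or DTG 4. It was 0 on the spike-in scale, without scaling and within low Xist.

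**Figure D4:**
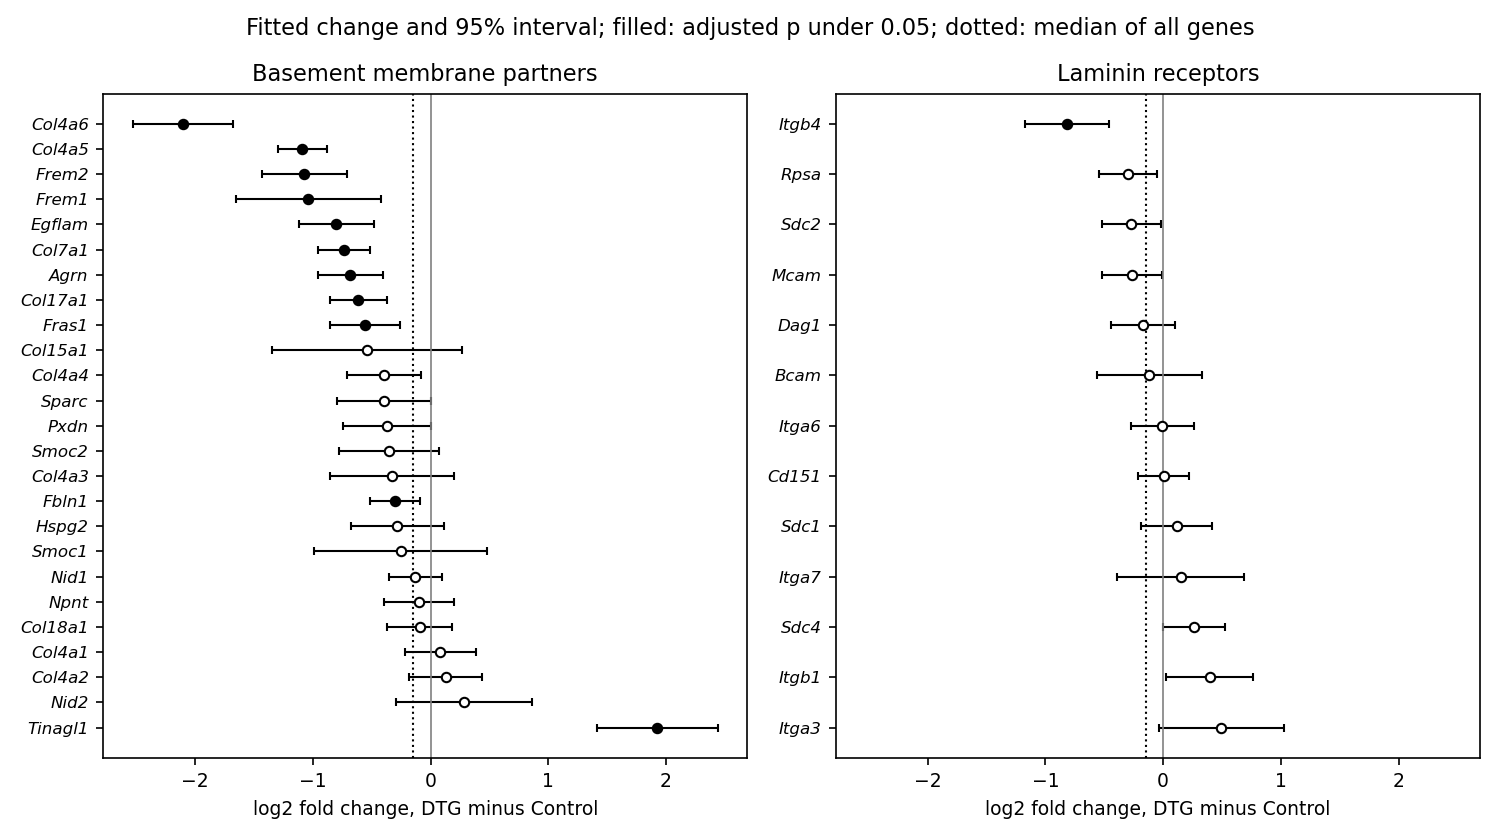
Fitted log2 fold change, DTG minus Control, with its 95% interval (horizontal axis) for 25 basement membrane partner genes and 13 laminin receptor genes; filled circles were called and the dotted line is the median of all genes. Col4a6 and Tinagl1 mark the ends of the range, and 1 of the 13 receptor genes, Itgb4, was called. On the spike-in scale 3 partner genes were called lower and 6 higher, against 2.94% and 40% of all genes.

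Marker genes of the cell types that skin holds were counted in the same fit, in which 21.3% of all genes were called lower and 11.1% higher. Of 12 Schwann cell and nerve markers, 5 were called lower and 0 higher, and their summed linear level was 21.3 to 25.7 on the Control and 18.2 to 20.8 on the DTG arrays. Bright genes weigh most in a linear sum. In this list they were Pmp22, with means of 3.30 in Control and 2.90 in DTG, and Egr2, with 2.22 and 2.21. Of 10 skeletal muscle markers, 3 were called lower and 0 higher, with sums of 179 to 194 on the Control and 147 to 160 on the DTG arrays. Of 9 keratinocyte markers 4 were called lower and 2 higher, with sums of 146 to 189 on the Control and 115 to 140 on the DTG arrays, and of 7 melanocyte markers 2 and 0, with sums of 7.46 to 9.58 on the Control and 5.86 to 7.41 on the DTG arrays. On the scale used, the DTG sums lay below the Control sums without overlap in these 4 lists. Of all genes taken singly, 23.2% separated the groups in that direction. No such share was worked out for sums over lists of genes. On the same scale the spike-in control spots read -0.86 to -0.40 on the Control and -1.17 to -1.09 on the DTG arrays. The spike-in scale would therefore raise the DTG sums more than the Control sums. Control 1 would be raised least, with its spike-in spots at -0.40. On the spike-in scale its Schwann cell and muscle sums would lie below those of every DTG array. In these lists the separation given above would therefore not hold. Whether the keratinocyte and melanocyte sums stay apart on it was not tested. In the other lists the sums of the groups overlapped on the scale used. Of 10 adipocyte markers 7 were called lower and 0 higher, with sums of 78.9 to 109 on the Control and 75.6 to 80.4 on the DTG arrays. Of 9 fibroblast markers the counts were 4 and 0, with sums of 153 to 206 on the Control and 133 to 153 on the DTG arrays. Of 12 endothelial markers, 3 were called lower and 1 higher, with sums of 20.5 to 24 on the Control and 16.4 to 21.2 on the DTG arrays. Of 11 smooth muscle and pericyte markers 1 was called lower and 0 higher, with sums of 27.5 to 31.6 on the Control and 28.7 to 32.1 on the DTG arrays. Of 15 hair follicle and dermal papilla markers 2 were called lower and 1 higher, with sums of 28.1 to 31.9 on the Control and 24.5 to 30.9 on the DTG arrays, and of 6 macrophage markers 0 and 1, with sums of 46.1 to 61.6 on the Control and 42.3 to 57 on the DTG arrays. The filter on dim probes already required every tested marker to be well above background on at least 3 of 4 arrays of a group. Mylk, the called smooth muscle and pericyte marker, was well above background on 4 Control and 0 DTG arrays. The part of these cell types in the laminin changes was not tested.

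By a fixed rule, the 3 genes whose signal ran most like that of Lama1 over the 8 arrays were Cd109 (Pearson r = 0.997), Copg2 (r = 0.997) and Klf8 (r = 0.996), out of 17273 genes compared. The 8 arrays fall into 2 groups on Lama1, so r mostly reflects the gap between Control and DTG, and 425 genes had an r above 0.95. Cd109, for a surface protein that binds TGF-beta, fell by 1.23, Copg2, for a coat protein of vesicles, by 0.74 and Klf8, for a transcription factor, by 0.94. On the spike-in scale they read -0.75, -0.25 and -0.45, and Copg2 was not called.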

How the data were processed

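The deposited scanner tables hold 1 intensity per spot, not logged. The file headers name Agilent Feature Extraction 11.5.1.1, whereas the submitters' processing notes name 10.7. The processed signal is background-corrected, per the file headers. Outlier flags and detection flags come with the deposited tables. The authors' deposited value table, also intensity, served as an alternative. The headers name build mm9, which was not used for coordinates.

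Signals were put on the log2 scale, outlier-flagged spots left out (0.55% of probe values), spots of a probe averaged and each array's 75th percentile subtracted. Probe accessions, stripped of versions, were looked up in a RefSeq table (GRCm38.p6), which named 26762 probes and left 28919 unnamed. Probes well above background on at least 3 of 4 arrays of a group were kept, and the brightest stood for a gene. The groups were compared in limma 3.58.1 under R 4.3.3, by a two-sided moderated test (lmFit, eBayes), with Benjamini-Hochberg adjustment over 17761 genes. On simulated data with 200 of 17772 genes changed, 66% of changes of 1 and 93% of changes of 2 on the log2 scale were called, with 11 false calls. The simulation changed a far smaller share of genes than the 32.4% called in the data. It also held no shift of background or scale between the groups, so these percentages are not the sensitivity of the fit to the data. The 4 arrays per group limit the precision.

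Named were all members, Lama3, Lamb3, Msi1, up to 4 called genes of each partner list with the largest change, and the 3 genes most like Lama1; the further partner genes named were picked after their values were seen. The members and lists were chosen with earlier results of these data known. Some genes withheld for evaluation are not reported here and were left out of the lists. Whether the 4 skins of a group came from separate animals is not stated. Both Xist classes occur in each group, so the 4 samples of a group are not all from a single animal. How many animals they stand for is not known. The p-values therefore measure only the spread between samples, part of which may be technical. Alternatives were other scalings, background correction, filters, probe rules, the Xist class, the slide column and leaving out each array.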

Additional observations from a re-analysis of the deposited data

Results flagged for a closer look

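An array was taken to stand apart in its group of 4 where its gap to the nearest array, divided by the range of the group, exceeded Dixon's 95% critical value, which chance gives in about 1 of 20 groups. Of 24 groups checked over the probes of the laminin genes, 2 met it. Lama5 on Control 4 read 1.14, against 1.41 to 1.44 on the other Control arrays. Lama3 on DTG 4 read -0.23 on its brighter probe, against 0.03 to 0.06 on the other DTG arrays. The DTG change of the 8 members was also compared between the Xist classes with an interaction term in limma, and 0 of 8 passed (lowest adjusted p = 0.694, at Lama5, whose unadjusted p was 0.184, the lowest of the 8).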

How the results depend on the processing

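Over 22 alternatives and the second probe of Lama2, 155 values of the 8 members kept their direction and side of the threshold, 5 lost their call, 5 gained one and 11 changed sign; Lama1 kept its call in the 21 that tested it, 1 of them with a single DTG array. With probes above background on all 8 arrays Lama1 was not tested. The cause of the changes was not tested. On the spike-in scale 1 member was called lower, partner genes (laminin-332, receptor, basement membrane, netrin and processing lists) numbered 3 lower and 14 higher, and the sign turned for Lama2 (0.11), Lama5 (0.24), Lamb1 (0.41), Lamc1 (0.21), Lama3 (0.22), Lamb3 (0.14) and Bmp1 (0.11). Without scaling 3826 genes were called, partner genes numbered 9 lower and 2 higher, and Lamb1 read 0.053. Quantile scaling called 2 partner genes higher. Normexp gave Ntn5 0.0071 and moved the change of Lama1 minus Lama5 to -2.19. Lama4 read -0.023 with the Xist class as covariate. Within high Xist 2626 genes (1429 lower) and 10 partner genes (lower) were called, Lama4 read -0.11 and Lamc1 minus Lamb1 0.013. Within low Xist 735 genes, 1 member and 1 partner gene (lower) were called, and Lamc3 minus Lamc1 read 0.26. The other Msi1 probe read -0.026. Leaving out 1 array gave 3 to 5 members lower (5 without Control 4) and 11 to 16 partner genes lower against 18 with all arrays (11 without Control 3), 1 to 2 higher (2 without Control 4 or DTG 1), 4063 to 5162 genes called, Lama4 at -0.031 to 0.20 and Lamb1 at -0.13 to 0.024. The labels carry no shared replicate numbers. With the slide column as a block, which pairs 1 Control with 1 DTG array by position on the slide, 4331 genes were called, and of the members Lamc3 gained a call.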

Other observations

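Lama4 and Lamb1 followed the Xist class in both groups. In Control they were higher on the arrays of high Xist (Lama4 1.80 and 2.20, Lamb1 2.72 and 2.99) than on those of low Xist (1.49 and 1.61, 2.54 and 2.57). In DTG the 3 arrays of high Xist read 1.79 to 2.04 for Lama4 and 2.57 to 2.82 for Lamb1, above the 1.68 and 2.37 of the low Xist array. The order of the arrays within each group was the same for both genes. Such a pattern, noticed after the values were seen, held for 1421 of 17274 genes (8.23%). With group in the model, the high minus low difference was 0.35 (SE 0.13) for Lama4 and 0.32 (SE 0.11) for Lamb1, and neither passed in limma over all genes (adjusted p = 0.321 and 0.274, unadjusted 0.0295 and 0.0187). Of all genes, 0.406% were called between the classes, and 0 of the 8 members. At an unadjusted p under 0.05 there were 2323 genes.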
